A study of Mus musculus with 6 samples.

Results

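Endothelial cells line every vessel of the lung and are recognised by genes for their junctions, their clotting and transport proteins and the transcription factors that set them apart from other cells. In pulmonary arterial hypertension the wall of the small lung arteries thickens, and BMPR2, the BMP type 2 receptor mutated in the familial disease, is known for acting in both endothelium and smooth muscle. The genes described here are 40 endothelial identity genes, taken by name: adhesion and surface proteins, ETS, SOX and bHLH transcription factors, the angiopoietins and their Tie receptors, and markers of capillary, arterial, venous and lymphatic endothelium. A probe set was counted as a member where the platform annotation gave it a single symbol and that symbol was one of the 40. This gave 70 of the 45037 probe sets, for 39 of the 40 genes, and Prx was not analysed here. After dim probe sets were left out, 66 of the 27022 remaining probe sets were members, and they stood for 38 of 13215 genes. Gja5, the arterial connexin 40, had only a dim probe set that lay at the lowest usable value in 2 pools, so it was not tested.

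RNA came from whole lung of 18 mice, hybridised as 6 Affymetrix arrays, each a pool of 3 animals. Lungs of SM22-dnBMPR2 inducible transgenic mice, which express a dominant-negative BMPR2 once the transgene is switched on, formed one group activated for 8 weeks and another activated for 1 week. The series text gives the controls as transactivator-only mice. The male control was labelled SM22-rtTA only, and the female control only by sex and the FVB/N strain. Each group held 1 female and 1 male pool. The transgene is driven from SM22, a smooth muscle promoter, so the endothelial cells are not its target by design. The transgenic mice had raised right ventricular pressure, per the series text. Age, inducer and the activation time of the controls are not given in the sources used here, and differences in these between groups cannot be told apart from the transgene. The same control pair served both durations.

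Pools of a group differed in sex as well as in animals, so the spread left in the model mixes a sex difference in response with the spread between pools. Precision was limited by there being 2 arrays in each group. The deposited intensities were quantile normalized, raised to a floor of 15.5 (log2 3.95) and put on the log2 scale, and every level and change below is on that scale unless it is named otherwise. The lung markers were at the top of the scale in every pool: Sftpc, the alveolar type 2 surfactant protein, lay at 13.17 to 13.26. The array medians as deposited were 50.5 and 52.9 in the 8 week pools, 60.2 and 57.1 in the 1 week pools, and 63.4 and 61.4 in the controls. They were lower at 8 weeks, so the sign of small changes depended on the scaling, as given beside the counts below. In whole lung, fewer endothelial cells and less of an RNA in each cell cannot be told apart.

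At 8 weeks the endothelial genes lay a little below the controls as a group, and none of them passed the test by itself. The median change over the 38 genes, each at its brightest probe set, was -0.18, while the median over all 13215 genes was 0.08. The change was below 0 in 32 of the 38 genes, and in 39.8% of all genes. In 24 of the 38 both the female and the male 8 week pool lay below the control of the same sex, as in 25.0% of all genes. Both 8 week pools lay below both controls in 19 of them, against 14.1% of all genes, and above both controls in 1, Angpt2, against 27.2%. The changes ran between -0.62 for Slco2a1 and 0.26 for Angpt2. The members' median was -0.19 between the female pools and -0.30 between the male pools. Of the 66 member probe sets, 0 passed an adjusted p of 0.05 (limma with Benjamini-Hochberg adjustment over all 27022), where 0.596% of all probe sets did. The smallest adjusted p among members was 0.0541. The count of 0 became 14, all lower and Slco2a1, Sox17, Vwf, Ptprb and Mmrn2 among them, with limma's trend and robust options, under which 1916 of all probe sets passed, and it stayed at or below 2 in the other alternatives. At an unadjusted p below 0.05 there were 18 member probe sets, all 18 lower, while 23.0% of all probe sets were past that line and 11.2% were lower.

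How far below the controls the list lay depended on the scaling. Under quantile normalization, values as deposited and arrays centred on their medians, the members' median was -0.18, -0.28 and -0.01, while that of all genes was 0.08, -0.08 and 0.20. The members lay below all genes by 0.26, 0.21 and 0.21 in these same settings. Centring shifts all genes of an array by the same amount, apart from values at the floor. The last value therefore repeats the one before it and is not a separate result. With centred arrays 20 of the 38 genes were below 0, against 26.3% of all genes. In that setting 7 were lower in both sexes, against 13.7% of all genes. Both 8 week pools then lay below both controls in 1 gene, against 7.41% of all genes, in place of the 19 above. With the values as deposited 36 were below 0, against 60.6% of all genes, and 30 were lower in both sexes, against 41.8%. Over the alternatives that gave a gene a value (17, or 16 for the genes whose brightest probe set carried a suffix for probes that can match several transcripts), 19 of the 38 genes kept a change below 0, 0 kept one above 0, and 19 changed sign in at least 1.

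**Figure D1:**
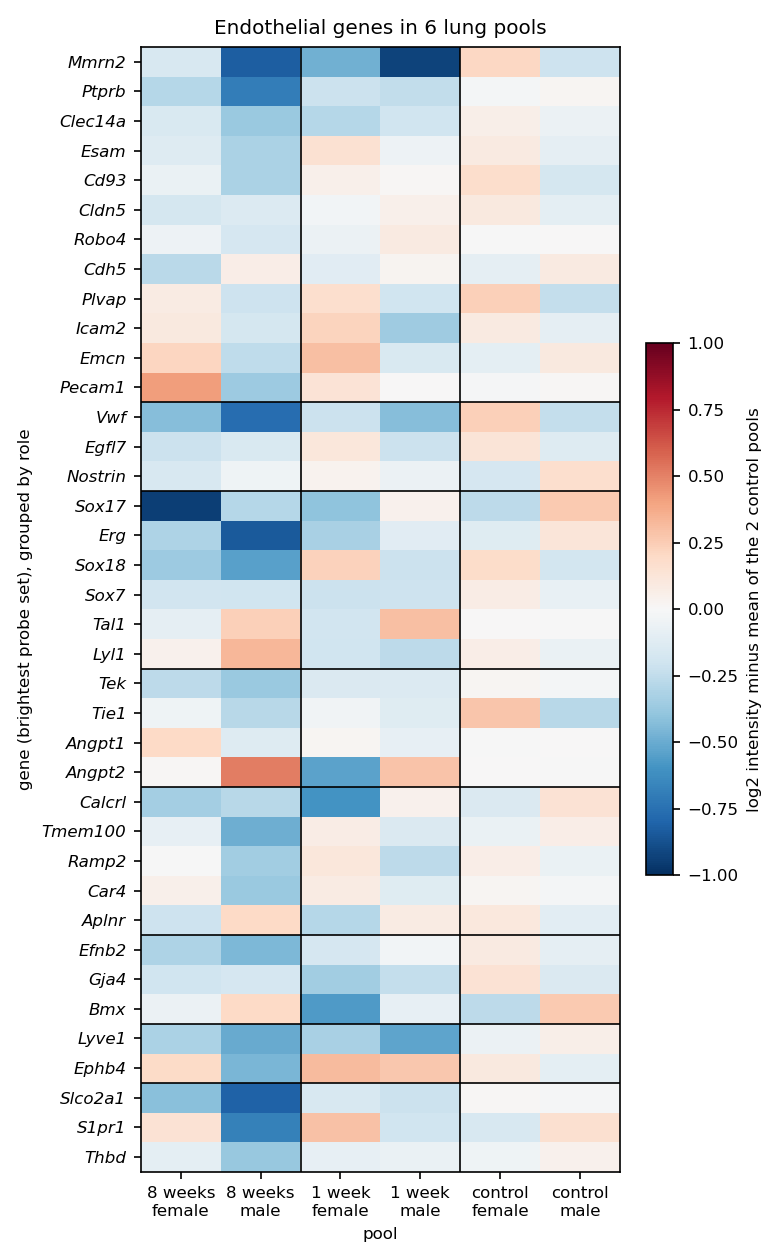
Level of each of the 38 measured endothelial genes (rows, brightest probe set, grouped by role) in each pool (columns), as log2 normalized intensity minus the mean of the 2 control pools, blue lower and red higher. The 8 week male column is the bluest, and Mmrn2 is bluer at 1 week than at 8 weeks within each sex.

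Of the 12 junction and surface genes, 0 passed at 8 weeks and 8 were lower in both sexes, against 25.0% of all genes. The change was above 0 in 1 of them, against 60.2% of all genes. Their median change was -0.13. Counts by role, here and below, are under quantile normalization, and with centred arrays 7 of all 38 members were lower in both sexes. Ptprb, the endothelial phosphatase VE-PTP that acts on VE-cadherin and Tie2, was at 11.61 (female) and 11.20 (male) at 8 weeks, at 11.68 and 11.65 at 1 week, and at 11.88 and 11.91 in controls. Its levels stepped down over control, 1 week and 8 weeks in both sexes with no overlap, and its change at 8 weeks was -0.49 ± 0.17 (SE; limma adjusted p = 0.184). Mmrn2, a multimerin of the endothelial matrix that binds CLEC14A and CD93, was at 10.03 and 9.36 at 8 weeks, 9.71 and 9.27 at 1 week, and 10.40 and 9.98 in controls. The 8 week female pool was above the male control, so those groups overlapped, while both 1 week pools were below both controls. Its change was -0.50 ± 0.14 at 8 weeks (limma adjusted p = 0.148).

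Cdh5, which encodes VE-cadherin of the adherens junction, was at 11.70 and 12.03 at 8 weeks, at 11.85 and 11.99 at 1 week, and at 11.87 and 12.06 in controls. Each transgenic pool was below the control of its sex, but the groups overlapped and the 8 week change was -0.10 ± 0.14 (limma adjusted p = 0.690). A dimmer Cdh5 probe set had an 8 week change of -0.50 ± 0.20 (limma adjusted p = 0.234). Pecam1, which is CD31 and is also made by platelets and leukocytes, was at 10.52 and 9.74 at 8 weeks, at 10.23 and 10.10 at 1 week, and at 10.09 and 10.11 in controls. Its female 8 week pool was the highest of the 6 and its male 8 week pool the lowest, and the fitted change was 0.03 ± 0.23. Emcn, the endothelial sialomucin endomucin, was also split by sex, with 9.57 and 9.10 at 8 weeks and 9.25 and 9.45 in controls. Esam, an adhesion molecule of tight junctions, was at 11.05 and 10.86 at 8 weeks, at 11.33 and 11.13 at 1 week, and at 11.27 and 11.09 in controls. Both of its 8 week pools lay below all 4 others, with a change of -0.22 ± 0.13 (limma adjusted p = 0.352). The receptors Clec14a and Cd93, the tight junction gene Cldn5 and the guidance receptor Robo4 had changes of -0.26, -0.19, -0.16 and -0.11. Plvap, of the fenestral diaphragm, and Icam2 had -0.06 and -0.04. Dimmer Cd93 probe sets had -0.48, -0.66 and 0.21, so they differed in sign, and a dimmer one of Clec14a had -0.39.

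Vwf, von Willebrand factor, which endothelial cells store and release in clotting and which megakaryocytes also make, was at 10.85 (female) and 10.51 (male) at 8 weeks. It was at 11.06 and 10.85 at 1 week and at 11.51 and 11.03 in controls. It was lowest at 8 weeks and highest in controls within each sex, and both 8 week pools lay below both controls. The change was -0.59 ± 0.14 at 8 weeks, or 0.662 of the control level (limma adjusted p = 0.116). The summed level of 8 platelet and megakaryocyte genes was 99.1% and 96.7% of the control mean at 8 weeks and 141% and 215% at 1 week, and their part in the Vwf values was not tested. Egfl7, a secreted protein of the vessel wall, and Nostrin, an adaptor of endothelial nitric oxide synthase, had changes of -0.18 and -0.10. Dimmer Egfl7 probe sets had -0.14, -0.22 and -1.05.

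Of the 6 transcription factors 0 passed at 8 weeks and 4 were lower in both sexes (Sox17, Sox18, Sox7 and Erg), against 25.0% of all genes. Their median change was -0.32. Sox17, a SOXF factor of arterial endothelium, was at 9.55 and 10.20 at 8 weeks, at 10.09 and 10.53 at 1 week, and at 10.23 and 10.76 in controls. Within each sex it was lowest at 8 weeks and highest in controls, and both 8 week pools were below both controls. Its change at 8 weeks was -0.61 ± 0.14 (limma adjusted p = 0.108), and that of its dimmer probe set was -0.86 ± 0.17 (limma adjusted p = 0.0998). Sox18 was at 10.19 and 10.01 at 8 weeks, at 10.78 and 10.33 at 1 week, and at 10.73 and 10.37 in controls. Both of its 8 week pools lay below the other 4, with a change of -0.45 ± 0.14 at 8 weeks (limma adjusted p = 0.166) and 0.01 at 1 week. Sox7, the third SOXF factor, differed less, with -0.20 ± 0.13 at 8 weeks and -0.21 ± 0.13 at 1 week.

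Erg, the ETS factor that maintains endothelial identity, was at 9.01 and 8.48 at 8 weeks, at 9.0 and 9.21 at 1 week, and at 9.20 and 9.44 in controls. Both 8 week pools were below both controls, the male one by far the more, and the change was -0.57 ± 0.24 (limma adjusted p = 0.242). A dimmer Erg probe set was at 5.98 in the female 8 week pool and at the floor in the male one, against 6.75 and 6.55 in controls, so its change of -1.68 ± 0.48 is a lower bound in size (limma adjusted p = 0.150). Tal1 and Lyl1, related bHLH factors of blood and endothelium, had changes of 0.07 ± 0.17 and 0.19 ± 0.16, each higher in the male and lower in the female 8 week pool.

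**Figure D2:**
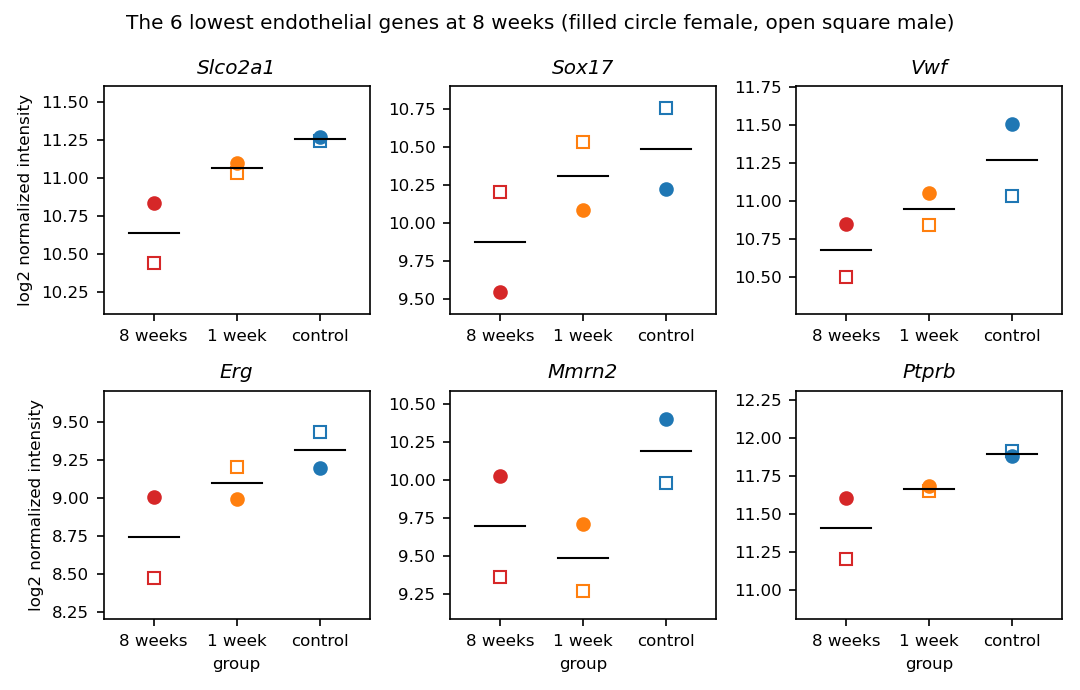
Log2 normalized intensity of the 6 genes with the lowest 8 week change, by group, with female pools as filled circles, male pools as open squares and group means as lines. For Slco2a1, Sox17, Vwf, Erg and Ptprb both 8 week pools lie below both controls, while for Mmrn2 the 1 week mean is the lowest.

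Of the 4 angiopoietin and Tie genes 2 were lower in both sexes at 8 weeks, against 25.0% of all genes, and 0 passed. The change was above 0 in 2, against 60.2% of all genes. Tek, which encodes Tie2, the receptor of the angiopoietins, was at 10.86 and 10.75 at 8 weeks, at 10.98 and 10.99 at 1 week, and at 11.15 and 11.11 in controls. Its 3 groups did not overlap, with the 8 week pools lowest, and the change was -0.32 ± 0.13 at 8 weeks (limma adjusted p = 0.235). Tie1, its coreceptor, was at 9.93 and 9.69 at 8 weeks and 10.25 and 9.70 in controls. Its female pools differed and its male pools hardly did, and the change was -0.16 ± 0.17. Angpt1, the Tie2 agonist made by mural cells, was at 10.70 and 10.37 at 8 weeks and 10.49 and 10.50 in controls, with a change of 0.04 ± 0.15. A dimmer Angpt1 probe set had -0.64 ± 0.54 (limma adjusted p = 0.518), higher between the female pools (0.48) and lower between the male pools (-1.76). Angpt2, which endothelial cells release and which can oppose Angpt1, was at 8.38 and 8.87 at 8 weeks, at 7.83 and 8.64 at 1 week, and at 8.37 and 8.35 in controls. It was the only one of the 38 with both 8 week pools above both controls. The female difference was 0.01 and the change of 0.26 ± 0.23 did not pass (limma adjusted p = 0.531), with one alternative, without the male control, putting it below 0.

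Of the 5 measured capillary genes 3 were lower in both sexes at 8 weeks, against 25.0% of all genes, and 0 passed. Calcrl, which pairs with the member Ramp2 as the adrenomedullin receptor, was at 11.33 and 11.40 at 8 weeks, at 11.07 and 11.72 at 1 week, and at 11.53 and 11.81 in controls at its brightest probe set. Each transgenic pool was below the control of its sex, and the 8 week change was -0.31 ± 0.18 (limma adjusted p = 0.375). Its dimmer probe sets differed more. One was at 7.60 and 6.33 at 8 weeks, against 8.46 and 8.99 in controls, with a change of -1.76 ± 0.43 (limma adjusted p = 0.122). Another was at 5.53 and the floor at 8 weeks, against 7.42 and 6.65 in controls, with a change of -2.29 ± 0.26 that is a lower bound in size. This was the member closest to passing (limma adjusted p = 0.0541). Tmem100, a BMP-dependent endothelial membrane protein, had -0.29 ± 0.18 at its brightest probe set and -1.48 ± 0.25 at a dimmer one (limma adjusted p = 0.0764), which was at 7.66 and 7.80 at 8 weeks and 9.17 and 9.26 in controls. Ramp2 itself, Car4, a carbonic anhydrase of lung capillaries, and Aplnr, the apelin receptor, had -0.18, -0.16 and -0.00. Dimmer probe sets of Car4 and Aplnr had 0.02 and 0.06.

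Probe sets of 1 gene did not give 1 size of change. The 28 dimmer probe sets, in 16 of the genes, had a median change of -0.49 at 8 weeks. Of these 28, 17 (60.7%) had a lower change than the brightest probe set of the same gene, as did 50.8% over all genes. The median difference was -0.22. Over all genes the 9834 dimmer probe sets had a median change of 0.01 and a median difference of -0.01 from the brightest. In Calcrl, Ptprb and Erg 1 dimmer probe set had its male 8 week pool at the floor, so its change is a lower bound in size. Why probe sets of 1 gene differ, whether by transcript form or by probe quality, was not tested.

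**Figure D3:**
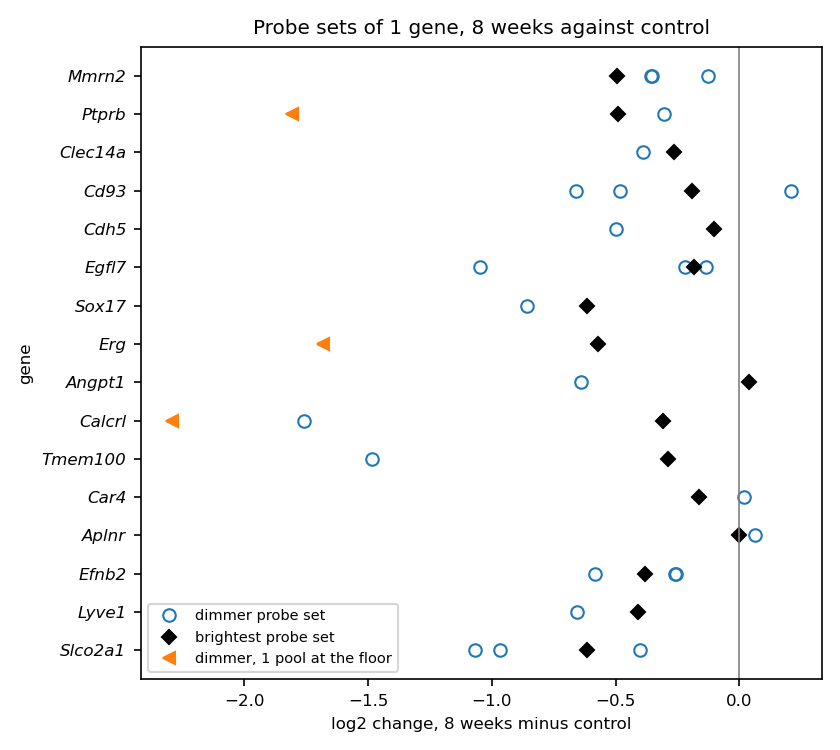
Change at 8 weeks against control (log2) for the 16 endothelial genes with more than 1 usable probe set: black diamonds the brightest, blue circles dimmer ones, orange triangles dimmer ones with 1 pool at the floor. Of the 28 dimmer probe sets 17 lie left of the brightest, as do 50.8% over all genes. Those farthest left are 2 of Calcrl and 1 each of Ptprb, Erg and Tmem100.

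Of the 3 measured arterial genes 2 were lower in both sexes at 8 weeks, as was 1 of the 2 venous and lymphatic genes. The share of all genes was 25.0%, and 0 of these 2 roles passed. Efnb2, ephrin-B2, the arterial ligand of EphB4, was at 10.76 and 10.62 at 8 weeks, at 10.90 and 11.04 at 1 week, and at 11.16 and 10.98 in controls. Both 8 week pools lay below both controls and both 1 week pools, with a change of -0.38 ± 0.15 (limma adjusted p = 0.224). Ephb4, the venous receptor, was at 8.60 and 7.95 at 8 weeks, at 8.72 and 8.68 at 1 week, and at 8.50 and 8.31 in controls, so the 8 week pools split by sex (-0.13 ± 0.19). Gja4, connexin 37 of arterial endothelium, was at 10.03 and 10.06 at 8 weeks, at 9.88 and 9.99 at 1 week, and at 10.37 and 10.08 in controls. Every transgenic pool was below both controls, by little in males, with changes of -0.18 ± 0.16 at 8 weeks and -0.29 ± 0.16 at 1 week. Bmx, a cytoplasmic kinase of arterial endothelium, was at 7.37 and 7.63 at 8 weeks, at 6.86 and 7.34 at 1 week, and at 7.17 and 7.69 in controls, with 0.07 ± 0.14 at 8 weeks. Lyve1, the hyaluronan receptor of lymphatic endothelium, which some lung macrophages also carry, was at 10.05 and 9.86 at 8 weeks, at 10.04 and 9.84 at 1 week, and at 10.31 and 10.42 in controls. All 4 transgenic pools lay below both controls at this probe set. The changes were -0.41 ± 0.15 at 8 weeks (limma adjusted p = 0.206) and -0.43 ± 0.15 at 1 week (limma adjusted p = 0.897). A dimmer Lyve1 probe set had -0.66 ± 0.18 at 8 weeks (limma adjusted p = 0.144) but -0.01 ± 0.18 at 1 week. Its 1 week female pool, at 9.69, was above both controls (9.62 and 9.14).

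Slco2a1, the prostaglandin transporter that clears prostaglandins from the lung circulation, had the lowest 8 week change of the 38. It was at 10.83 and 10.44 at 8 weeks, at 11.09 and 11.03 at 1 week, and at 11.27 and 11.24 in controls. The 3 groups did not overlap and stepped down with longer activation, and the 8 week change was -0.62 ± 0.16, or 0.652 of the control level (limma adjusted p = 0.127). Its 3 other probe sets had changes of -0.40, -1.07 and -0.97. S1pr1, the sphingosine 1-phosphate receptor that tightens the endothelial barrier, was at 9.67 and 8.85 at 8 weeks and 9.37 and 9.68 in controls. The female pool was higher by 0.30 and the male pool lower, at -0.84, which gave -0.27 ± 0.30. Thbd, the anticoagulant receptor thrombomodulin, had a change of -0.24 ± 0.16 and stepped down over the groups in both sexes.

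At 1 week the endothelial genes differed less from the controls. The median change was -0.07, against 0.03 over all genes, and 0 of the 66 member probe sets passed, as did 0 of all probe sets (0.00%; limma). The change was below 0 in 28 genes, as in 42.7% of all genes, 17 were lower in both sexes, as were 21.1% of all genes, and 10 had both pools below both controls, as did 7.79%. With arrays centred on their medians 13 were lower in both sexes, against 15.5% of all genes, and the median was 0.01. At an unadjusted p below 0.05 there were 5 member probe sets, all 5 lower, where the share of all probe sets was 5.50%, and 2.47% for lower ones. These were the 4 Mmrn2 probe sets and the brightest of Lyve1, whose dimmer probe set had a 1 week change of -0.01. The Mmrn2 changes were -0.70, -0.64, -0.57 and -0.74, with limma adjusted p = 0.894 for each, while at 8 weeks they lay between -0.50 and -0.13. Among all genes, 0.477% had a lower 1 week change than Mmrn2. Ephb4 had the highest 1 week change of the list, 0.29 ± 0.19 (limma adjusted p = 0.948), with both 1 week pools above both controls.

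**Figure D4:**
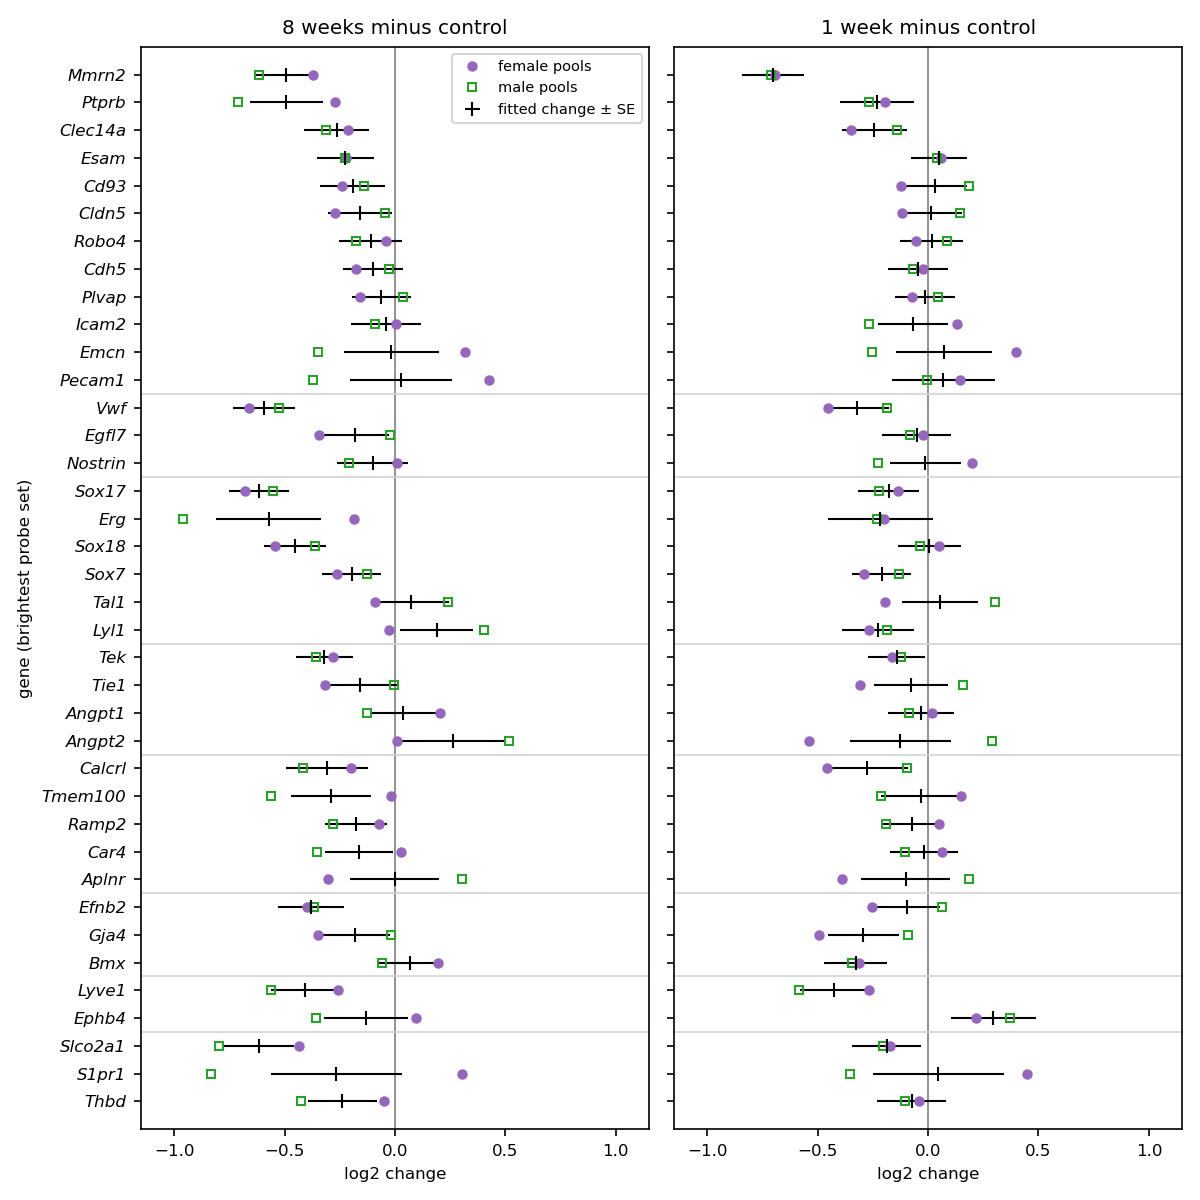
Log2 change of each endothelial gene at 8 weeks (left) and 1 week (right) against control, between female pools (filled circles), between male pools (open squares) and as fitted (tick with its standard error). At 8 weeks 24 genes have both points below 0, at 1 week 17, and S1pr1, Emcn and Pecam1 have points on opposite sides at 8 weeks.

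Between the durations, the median of 8 weeks minus 1 week was -0.10, against 0.04 over all genes, and 0 member probe sets passed, as did 0 of all (0.00%; smallest member adjusted p 0.108, limma). Sox17, Sox18 and Slco2a1 had -0.44 ± 0.14, -0.46 ± 0.14 and -0.43 ± 0.16, each with an unadjusted p below 0.05 and a limma adjusted p of 0.216, 0.213 and 0.257. Bmx went the other way, at 0.40 ± 0.14 (limma adjusted p = 0.250), since its lowest levels were at 1 week. At an unadjusted p below 0.05 there were 14 member probe sets, 12 of them lower, and 18.5% of all probe sets were past it, 9.18% as lower. Over both durations, 15 genes lay below the control of the same sex in all 4 transgenic pools, as did 9.88% of all genes, and 0 lay above it in all 4, as did 18.6%. The count of 15 was 5 with centred arrays, against 4.64% of all genes. Both durations share the 2 control pools. Ptprb, Slco2a1, Sox17, Tek, Thbd and Vwf, 6 genes, were lowest at 8 weeks and highest in controls in both sexes, an order that 5.27% of all genes had. With both durations as 1 group, 0 member probe sets passed, as did 0 of all (0.00%), and 13 had an unadjusted p below 0.05, all lower, against 14.0% of all (7.09% lower).

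Between females and males 2 member probe sets passed (limma adjusted p below 0.05), 1 higher and 1 lower, where 8.30% of all probe sets did, 3.46% higher and 4.85% lower. A dim Calcrl probe set was higher in females, at 5.53 (female) and the floor (male) at 8 weeks, 7.35 and 5.68 at 1 week, and 7.42 and 6.65 in controls, a difference of at least 1.34 ± 0.21 (limma adjusted p = 0.0358). The brightest Calcrl probe set was lower in females in all 3 groups, so the probe sets disagree on the direction. A dim Efnb2 probe set was lower in females, at 5.06 and 6.02, 5.31 and 5.85, and 5.30 and 6.30 in the same order, a difference of -0.83 ± 0.14 (limma adjusted p = 0.0389). Its brightest probe set gave no constant order of the sexes. Neither passed with any 1 array left out. At their brightest probe sets 12 of the 38 genes were higher in females in all 3 groups, as were 25.0% of all genes, and 4 were lower, as were 31.4%. The 12 include Mmrn2, Vwf, Slco2a1 and Sox18, and the 4 are Bmx, Calcrl, Cdh5 and Sox17. Besides Calcrl and Efnb2, probe sets also disagreed on the direction in Cdh5, Sox17, Slco2a1, Clec14a and Cd93. The female minus male difference was -0.22, -0.54, 0.16, 0.08 and 0.22 at their brightest probe sets. It was 0.48, 0.29, -0.25, -0.45 and -0.05 at a dimmer one of each. Further Slco2a1 probe sets had 0.63 and 0.28, and further Cd93 ones had 0.22 and 0.24. An interaction of transgene and sex was fitted over both durations, with 1 control pool for each sex. Its error holds the differences between 8 weeks and 1 week within a sex, which widened it (1.48 for the dim Calcrl probe set, against 0.26 for its 8 week change), so an absence of calls says little. There 0 member probe sets passed, as did 0 of all (0.00%; limma), and 0 had an unadjusted p below 0.05, where 2.35% of all did.

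The standard deviation over the 6 pools ran between 0.09 for Robo4 and 0.43 for Mmrn2. These lay at percentiles 4.33 and 82.4 of all genes, with Sox17 at 80.6, S1pr1 at 72.7 and Angpt2 at 72.3. The summed intensity of the 38 genes was 89.7% and 80.9% of the control mean in the 8 week female and male pools, 95.3% and 91.5% in the 1 week pools, and 102.8% and 97.2% in the controls. Both 8 week sums lay below the other 4 pools. All sums here are of quantile normalized intensities, and the members' median 8 week change went from -0.18 in that scaling to -0.01 with centred arrays. Over 42 other endothelial genes, from a list kept apart from the members, the sums were 86.2% and 83.7% at 8 weeks, 96.8% and 97.3% at 1 week, and 99.7% and 100.3% in controls. In the 8 week pools 6 neutrophil genes summed to 264% and 302% of the control mean and 10 macrophage genes to 184% and 167%, while 10 smooth muscle genes summed to 80.3% and 75.3%. The 8 alveolar type 1 genes, of the cells that line the air side of the same wall, were at 99.9% and 102.2%. Alveolar type 2 genes (7) were at 114.6% and 114.8%, and 6 cell cycle genes at 242% and 304%. Lower sums were those of 6 airway epithelial genes, at 87.5% and 88.9%, 8 pericyte genes, at 87.0% and 91.6%, and 5 lymphatic endothelial genes, at 92.0% and 92.6%. The 8 cardiac muscle genes, which mark heart or pulmonary vein tissue in a lung sample, were at 21.9% and 51.9%. The part of these other cells in the endothelial values was not tested.

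**Figure D5:**
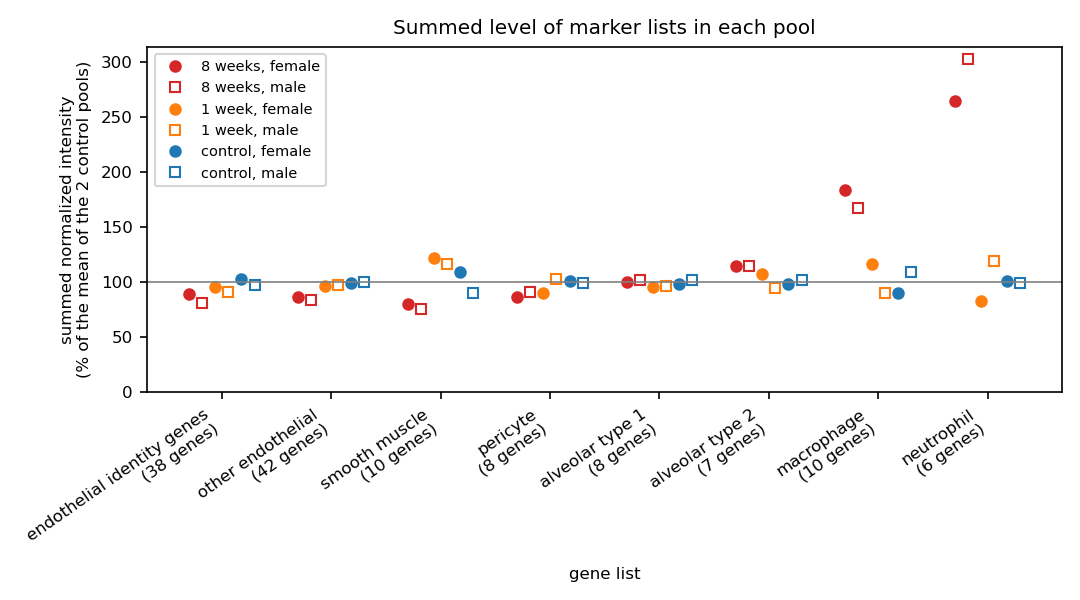
Summed normalized intensity of marker lists in each pool as a percentage of the mean of the 2 control pools, with 8 week pools in red, 1 week pools in orange, controls in blue, females filled and males open. The endothelial identity genes and the other endothelial genes lie between 80% and 90% at 8 weeks, the neutrophil list above 250% and the alveolar type 1 list near 100%.

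ETS factors such as Erg bind a GGAA core and are known to act at many endothelial promoters, so the 250 bases before the gene starts were read for the letters CNGGAAG on either strand (CTTCCNG on the other). RefSeq windows (GRCm38.p6) were matched for 20 of the 40 genes, 25 windows in all, and 12 of the 25 held the letters (48%), as did 26.6% of 32851 windows of the same length over all genes. The SOX letters ACAATNG were in 3 (12%, against 6.91%), the GATA letters AGATAA in 2 (8%, against 9.99%) and the GC-rich Smad letters GGCGCC in 2 (8%, against 9.59%), on either strand. In these 25 windows 0 matches of one motif shared bases with a match of another. A match is a description of the sequence and not a bound site. The windows below set Slco2a1 and Tek, which hold no ETS letters, beside windows of Calcrl, Erg and Tie1 that hold them, in capitals. Slco2a1 and Tek were lowest at 8 weeks in both sexes, and so was Tie1, though by little. Erg had 3 windows, of which only the 1 shown holds the letters. Slco2a1 is from chr9:103008237-103008486 (plus strand), Tek from chr4:94739039-94739288 (plus), Calcrl from chr2:84425267-84425516 (minus), Erg from the start at chr16:95459349-95459598 (minus), and Tie1 from chr4:118489850-118490099 (minus), each written 5′ to 3′ on the gene's strand.
Slco2a1: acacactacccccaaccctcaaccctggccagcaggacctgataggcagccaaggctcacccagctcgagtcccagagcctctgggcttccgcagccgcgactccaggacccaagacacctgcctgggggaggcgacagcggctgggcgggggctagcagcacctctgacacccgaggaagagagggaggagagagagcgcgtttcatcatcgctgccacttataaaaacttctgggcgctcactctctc
Tek: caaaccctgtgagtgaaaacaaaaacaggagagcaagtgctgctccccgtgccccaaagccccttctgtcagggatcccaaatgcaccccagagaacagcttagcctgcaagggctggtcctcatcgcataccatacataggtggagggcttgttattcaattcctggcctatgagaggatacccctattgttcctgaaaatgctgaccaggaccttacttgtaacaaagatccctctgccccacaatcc
Calcrl: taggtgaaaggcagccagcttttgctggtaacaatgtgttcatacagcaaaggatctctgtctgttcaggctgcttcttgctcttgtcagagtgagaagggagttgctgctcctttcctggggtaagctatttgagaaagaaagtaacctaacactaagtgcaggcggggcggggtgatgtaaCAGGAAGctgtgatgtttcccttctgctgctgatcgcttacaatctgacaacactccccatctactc
Erg: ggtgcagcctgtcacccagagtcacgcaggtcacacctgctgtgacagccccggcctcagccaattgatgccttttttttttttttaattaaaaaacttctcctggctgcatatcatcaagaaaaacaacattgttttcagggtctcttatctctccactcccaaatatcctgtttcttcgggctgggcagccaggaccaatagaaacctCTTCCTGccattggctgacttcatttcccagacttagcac
Tie1: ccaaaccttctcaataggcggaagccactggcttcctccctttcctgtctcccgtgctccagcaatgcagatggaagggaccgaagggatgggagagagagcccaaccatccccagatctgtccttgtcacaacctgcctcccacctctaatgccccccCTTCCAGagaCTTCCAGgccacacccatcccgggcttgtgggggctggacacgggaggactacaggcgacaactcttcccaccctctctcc
Tie1, with 2 matches, had a smaller 8 week change (-0.16) than Slco2a1 with none (-0.62), and no order by the letters was tested.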

How the data were processed

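Each of the 6 samples was a pool of 3 mouse lungs on 1 array, and freezing and column extraction are described for the transgenic samples only, per the labels' protocols. The values deposited by the authors were linear signal intensities between 10 and 11513, and between 11.1% and 12.5% of an array's values were at the lowest. How they were summarised and scaled is not given in the sources used here.

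The 6 arrays were quantile normalized, a floor was set at the 20th percentile of all values, and the log2 of each value was used. Probe sets with a mean above the 40th percentile were kept, which left 27022. A gene symbol was used only where the platform annotation gave 1 (34945 probe sets). Limma 3.58.1 in R 4.3.3 fitted group and sex over all 6 arrays (2 residual degrees of freedom, prior 2.77), and a second model fitted transgene, sex and their interaction. P-values were adjusted by Benjamini-Hochberg over all kept probe sets, and 0.05 was the threshold. Nothing in the labels pairs pools except sex. The model was tried on simulated data. Plots used matplotlib 3.10.9 (Python 3.11.15).

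A gene's brightest kept probe set stood for it. Members given in detail were Pecam1, Cdh5, Tek, Tie1, Vwf and Erg, the 6 lowest and highest changes at each duration and any that passed, and the others are given in brief. The members, lists and tests were chosen with earlier results of these data known. The alternatives changed the scaling, floor, pseudocount, filter, probe set choice, model terms and variance moderation, or left out 1 array.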

Additional observations from a re-analysis of the deposited data

How the results depend on the processing

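The count of member probe sets that passed at 8 weeks was 0 and became 1 with values as deposited (Calcrl), 2 with arrays centred on their medians and 2 with log2(value + 16) (Calcrl and Tmem100 in both), 1 with a filter at the 60th percentile (Tmem100), 1 without probe sets whose suffix marks probes that can match several transcripts (Calcrl) and 14 with trend and robust settings, all lower. Those 14 were in Calcrl, Slco2a1, Sox17, Vwf, Ptprb, Tmem100, Sox18, Lyve1, Cd93 and Mmrn2. Leaving out 1 array gave between 0 and 2, with 2 only without the male 8 week pool (Calcrl and Egfl7). Over all probe sets the 161 calls at 8 weeks, 65.2% of them lower, became 461 as deposited (83.5% lower), 705 with centred arrays (54.9% lower), 208 with 1 value per gene (24.0% lower), 439 with a floor at the 40th percentile, 583 with log2(value + 16), 505 with the filter at the 60th percentile, 1916 with trend and robust settings, between 0 and 1071 without 1 array, and 0 with no filter, with no term for sex or with the compared arrays alone. For 8 weeks against 1 week, trend and robust settings gave 1 (Calcrl), with 752 of all probe sets called. The 2 passing between females and males became 3 with a floor at the 40th percentile (2745 of all probe sets), 5 with log2(value + 16) (2975), 4 with the filter at the 60th percentile (2254), 15 with trend and robust settings (4183), against 2244 of all in the reported fit, and 0 without a filter, with 1 value per gene, or without any 1 array. The median change of members at 8 weeks was -0.28 as deposited and -0.0112 with centred arrays. At 1 week it was 0.00514 with centred arrays and -0.11 with 1 value per gene, and between -0.15 and -0.073 without 1 array. For 8 weeks against 1 week it was -0.18 as deposited, 0.00377 with centred arrays, and between -0.19 and -0.042 without 1 array. For both durations together it was -0.18 as deposited, -0.00053 with centred arrays and, with 1 value per gene, -0.15, and between -0.19 and -0.11 without 1 array. The interaction could not be fitted without either control array. The cause of these shifts was not tested, except that fewer arrays leave fewer degrees of freedom. The reported model holds sex as its block, which is the pairing the labels give between groups, since they number no replicates, and without the sex term 0 member probe sets passed at either duration.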

Other observations

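Outside the 40 genes, a list was kept of other endothelial genes. Of its 42 measured genes, each at its brightest probe set only, 1 passed at 8 weeks. Over all probe sets, with several for some genes, 0.596% did. Slc6a2, the noradrenaline transporter, was at 7.14 (female) and 6.56 (male) at 8 weeks, at 8.99 and 8.28 at 1 week, and at 9.32 and 8.97 in controls, and fell by 2.29 ± 0.15 (limma adjusted p = 0.0470). Both 8 week pools lay below all other pools. It passed in 8 of 17 alternatives. The limma adjusted p was 0.00219 with trend and robust settings and 0.161 with no filter. As the mean of the gene's kept probe sets the change was only -0.50 (limma adjusted p = 0.152). Its probe sets therefore disagree on the size and may disagree on the direction. The median change of that list was -0.21 at 8 weeks and -0.08 at 1 week, against 0.08 and 0.03 over all genes. In both sexes at 8 weeks 27 of its genes were lower, against 25.0% of all genes. The change was above 0 in 13, against 60.2% of all genes. These values are under quantile normalization. Selp, the P-selectin of activated endothelium and platelets, was at 7.50 and 7.52 at 8 weeks, against 6.30 and 6.25 in controls, a change of 1.24 ± 0.17 that did not pass (limma adjusted p = 0.0603). Fendrr and Foxf1, neighbours that mark lung endothelium and mesenchyme, had changes of -1.01 and -0.46, and Hpgd, the enzyme that breaks down prostaglandins taken up by Slco2a1, had -0.54 (limma adjusted p = 0.128).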
